A study of Mus musculus with 3 samples.

Results

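The cells described here are 654 of the 3470 mouse bone marrow cells that the authors kept, chosen by their own RNA counts: at least 2 unique molecular identifiers (UMIs, each standing for 1 captured RNA molecule) of Dntt and at most 1 UMI of Elane. Dntt encodes terminal deoxynucleotidyl transferase, an enzyme of early lymphocytes, and Elane encodes neutrophil elastase. They are called Dntt-positive cells below. All cells came from the lineage-negative, Sca1-positive, Kit-positive (LSK) compartment, which holds blood stem cells and multipotent progenitors. The donors were 2 Helios-deficient (knockout) and 2 wild-type animals, and the labels give no strain, age, allele or treatment. Helios, the product of Ikzf2, is a DNA-binding relative of Ikaros. Cells of each mouse carried their own hashtag antibody and were then run together as 1 droplet library, with antibody tags for CD41, CD48, CD150 and CD135 (the Flt3 protein). All 3470 cells have RNA, tag and hashtag counts under 1 shared barcode. The mouse is the replicate throughout, so n = 2 per genotype, and p-values measure the spread between these 4 mice of 1 run. Barcodes that the authors' hashtag calls marked as doublets are not among the 3470 cells, doublets within 1 mouse cannot be told by hashtag, and no further doublet caller was run.

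Lymphoid priming is the step at which multipotent progenitors begin to transcribe lymphocyte genes while they can still give rise to myeloid cells. In mouse marrow these progenitors carry the cytokine receptor Flt3, and they switch on Dntt and unrearranged immunoglobulin heavy chain transcripts before they commit to the B or T lineage. The interleukin 7 receptor, the recombinase genes Rag1 and Rag2 and the B cell factor Ebf1 follow in the next stages. Ikaros family proteins bind DNA through the core GGGAA and are known regulators of lymphocyte development.

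The start regions of 4 of the marker genes are shown because these genes stood high together in the Dntt-positive cells and because the mice differ in a factor of the Ikaros family. Each is the RefSeq window on GRCm38.p6 from 250 bases before to 50 bases after the annotated start, 5′ to 3′ on the gene's strand, with GGGAA or its reverse complement TTCCC in capitals. Dntt lies at chr19:41029025-41029324 (plus strand), Flt3 at chr5:147400440-147400739 (minus strand), Il7r at chr15:9529827-9530126 (minus strand) and Cnn3 at chr3:121426291-121426590 (plus strand).
Dntt: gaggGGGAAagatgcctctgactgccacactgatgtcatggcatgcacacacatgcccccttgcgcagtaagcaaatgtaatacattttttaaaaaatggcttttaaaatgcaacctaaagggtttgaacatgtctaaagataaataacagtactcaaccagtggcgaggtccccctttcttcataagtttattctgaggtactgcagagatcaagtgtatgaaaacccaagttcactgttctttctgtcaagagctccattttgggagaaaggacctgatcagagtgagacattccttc
Flt3: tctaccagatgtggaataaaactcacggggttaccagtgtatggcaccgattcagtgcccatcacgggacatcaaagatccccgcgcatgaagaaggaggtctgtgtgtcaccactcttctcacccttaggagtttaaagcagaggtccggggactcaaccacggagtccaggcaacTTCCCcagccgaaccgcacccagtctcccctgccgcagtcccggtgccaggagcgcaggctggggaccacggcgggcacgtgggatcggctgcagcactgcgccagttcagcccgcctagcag
Il7r: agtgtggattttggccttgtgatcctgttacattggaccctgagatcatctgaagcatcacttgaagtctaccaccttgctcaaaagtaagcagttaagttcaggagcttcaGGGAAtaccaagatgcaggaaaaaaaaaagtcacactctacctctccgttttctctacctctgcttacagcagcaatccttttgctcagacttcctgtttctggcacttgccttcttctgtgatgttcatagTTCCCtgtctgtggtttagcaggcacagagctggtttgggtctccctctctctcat
Cnn3: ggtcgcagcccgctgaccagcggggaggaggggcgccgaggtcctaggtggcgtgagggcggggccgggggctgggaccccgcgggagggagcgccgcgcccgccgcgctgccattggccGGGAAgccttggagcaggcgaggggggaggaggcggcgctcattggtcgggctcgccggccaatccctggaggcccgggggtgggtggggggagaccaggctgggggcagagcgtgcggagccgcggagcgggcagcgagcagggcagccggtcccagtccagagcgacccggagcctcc
The core occurs 1 time each in the Dntt, Flt3 and Cnn3 windows and 2 times in the Il7r window. It is a short motif, found on either strand in 62.7% of all 32851 windows of this length, and a match is no evidence of binding.

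The rule found 100 Dntt-positive cells in Helios-deficient mouse 1, 154 in Helios-deficient mouse 2, 212 in wild-type mouse 1 and 188 in wild-type mouse 2. Of 655 kept cells with at least 2 Dntt UMIs, the Elane clause removed 1. Among the 654 cells, 631 had 0 Elane UMIs and 23 had 1. The cut on Dntt ran through a continuum: 123 Dntt-positive cells stood just inside at 2 UMIs, 195 had 3 to 5, 162 had 6 to 13 and 174 had 14 or more, up to 160, while 331 kept cells just outside had 1 UMI and 2484 had 0. The Dntt-positive cells held 95.9% of the Dntt UMIs of the kept cells. Dntt and Elane chose the cells, so their levels are a description only. Dntt stood at 815, 1382, 1232 and 1111 CPM (UMIs of the gene per 1000000 UMIs of the class in that mouse) in the Dntt-positive cells and at 14.2, 12.8, 11.2 and 13.7 CPM in the other 2816 cells. Here and below, 4 values in a row are Helios-deficient mouse 1, Helios-deficient mouse 2, wild-type mouse 1 and wild-type mouse 2.

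Depth moved with the rule. Dntt-positive cells had a median of 11192, 10740, 8178 and 7898 UMIs, against 8088, 8100, 7387 and 7593 in the other cells. The shallowest Dntt-positive cell had 4046 UMIs, while 82 of the other cells had fewer than 4000. A deeper cell reaches 2 Dntt UMIs more easily, so shares of cells are also given after every cell was thinned at random to 4000 UMIs.

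The label lymphoid-primed was checked against Flt3, Il7r, Cnn3, Ighm and Satb1, which the rule did not use. All 5 were found more often than in other cells. Flt3 had a UMI in 71.9% of the Dntt-positive cells after thinning (91.1% before), Ighm in 74.2% (87.2%), Satb1 in 49.2% (73.1%), Cnn3 in 28.1% (44.2%) and Il7r in 5.05% (9.79%). As cells that should lack these transcripts, 187 kept cells with at least 3 UMIs of the platelet gene Pf4 were taken. They also had at most 1 UMI each of Dntt and Elane, so cells that met the Dntt rule were left out of them by design. Their thinned shares were 9.14% for Flt3, 7.53% for Ighm, 5.91% for Satb1 and 0% for Cnn3 and Il7r. Those Pf4-positive cells were deeper (median 11422 UMIs, against 8779.5 for Dntt-positive cells), and 0 of the 186 that could be thinned allows a share of up to 1.61%.

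Markers of other cell types differed by type. The defining genes Ms4a1 of mature B cells, Cd3e and Cd8a of T cells and Ncr1 and Il2rb of natural killer cells had 0 UMIs in the 654 cells. Other genes of the same lists were present: Cd79b in 258 cells, Ighd in 33, Nkg7 in 492 and Klrd1 in 33. The 6 natural killer markers summed to 266, 283, 229 and 255 CPM against 231, 226, 293 and 262 CPM in the other cells. The 6 mature B markers summed to 76.1, 85.4, 95.7 and 79.4 CPM against 73.7, 1256, 5027 and 78.2 CPM. The recombinase gene Rag1 had 1 UMI in each of 5 cells, and Cd79a in each of 2 cells. The 6 stem cell markers summed to between 221 and 272 CPM in the 4 mice against 425 to 499.8 CPM in the other cells. The 6 myeloid markers (Elane, which chose the cells, Mpo, Ctsg, Prtn3, Ms4a3 and Cebpa) summed to 1138, 969.9, 857 and 886 CPM against 1824, 1726, 1149 and 951 CPM, lower in all 4 mice. The share of cells with at least 3 of these 6 was nevertheless larger (31.7% against 22.4%, in cells that were also deeper and not thinned for this). Plasmacytoid dendritic markers stood higher in every mouse, at 412 to 598 CPM against 268 to 305 CPM. Of that list Spib had 0 UMIs and Siglech 1 UMI in 1 cell. Bst2 gave 1390 UMIs, Tcf4 1034, Irf8 659 and Ly6d 173. Bst2 by itself did not pass against the other cells (log2 difference 0.30, edgeR adjusted p = 0.0502). T cell markers also stood higher in every mouse, at 43.8 to 81.3 CPM against 10.4 to 19.8 CPM. The summed erythroid markers stood at 116 CPM in wild-type mouse 2, where 1 cell held 52 of the 57 Hba-a1 UMIs, and between 5.62 and 12.8 CPM in the Dntt-positive cells of the other mice. The part of these cell types in the results below was not tested. Mpo, the myeloperoxidase gene of the myeloid lineage, had a UMI in 381 of the 654 cells. Mpo and Il7r were found together in 42 cells, and the product of their separate shares gives 37.3.

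**Figure D1:**
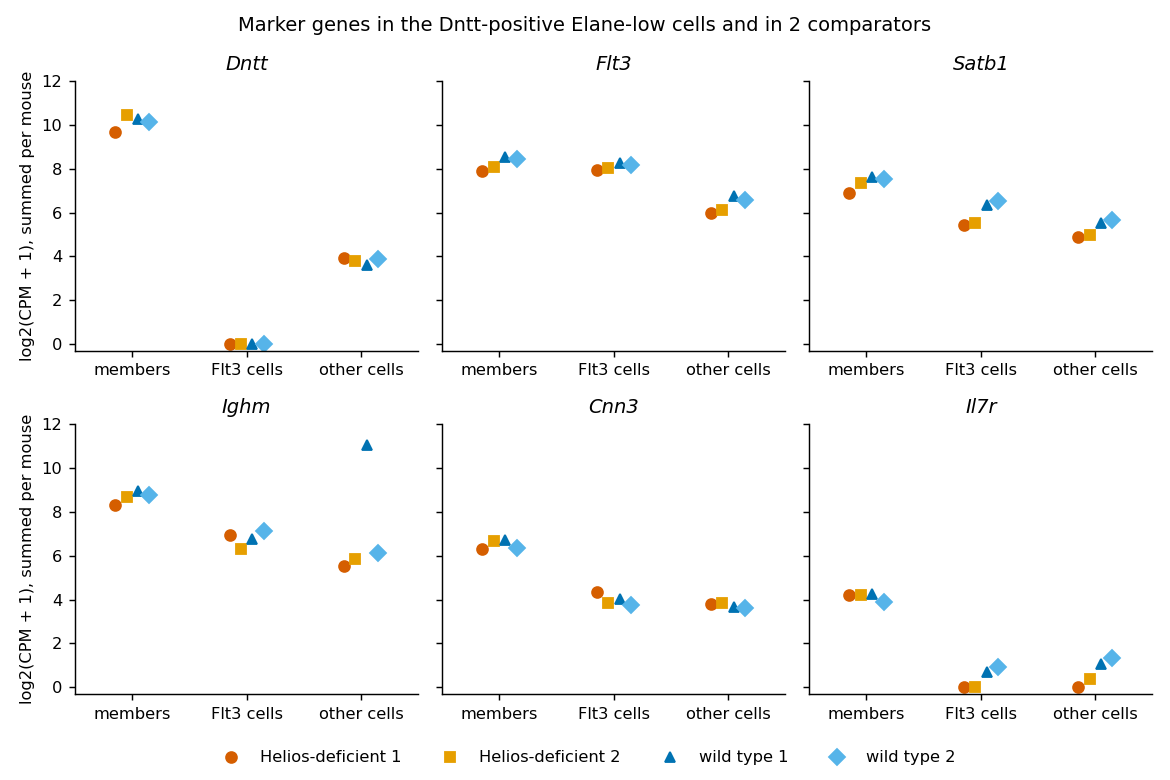
Level of the 6 marker genes as log2(CPM + 1), summed per mouse (1 point per mouse), in the Dntt-positive cells ("members"), in the 406 Flt3 cells without Dntt or Elane and in all other kept cells. Dntt chose the cells and Flt3 chose the Flt3 cells. Satb1, Cnn3 and Il7r are higher in the Dntt-positive cells of every mouse, and Ighm of the other cells reaches 2117 CPM in wild-type mouse 1.

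Receptors of lymphoid progenitors separated the Dntt-positive cells from the other 2816 cells. Flt3 stood at 239.7, 269, 376 and 352 CPM against 61.5, 67.4, 106 and 95.4 CPM in the other cells of the same mice, a log2 difference of 1.95 (SE 0.05, edgeR adjusted p = 9.6e-29, n = 4 mice). Il7r, the interleukin 7 receptor alpha chain, was rare in both, at 17.4, 17.4, 17.9 and 13.8 CPM against 0, 0.301, 1.08 and 1.51 CPM (log2 difference 4.39, SE 0.34, edgeR adjusted p = 9.7e-13). It was carried by 64 Dntt-positive cells and 10 of the other cells. All 4 mice were higher in the Dntt-positive cells for both genes, without overlap. The homing receptor gene Ccr9, which guides progenitors to thymus and gut, was at 13.2, 19.7, 15.3 and 32.8 CPM against 0, 0.1505, 1.43 and 2.87 CPM (log2 difference 4.12, SE 0.34, edgeR adjusted p = 4.8e-09). Notch1, the receptor that directs T cell fate, was at 38.9, 42.7, 54.2 and 52.9 CPM against 8.63, 9.63, 12.7 and 11.2 CPM (2.21, SE 0.12, edgeR adjusted p = 2.7e-17). Of 19 cytokine, Notch and homing receptor genes tested, 8 were higher (also Ccr7, Il6ra, Il6st and Csf1r) and 1 was lower. Higher or lower here means an edgeR adjusted p under 0.05 and a log2 difference of at least 1 in size. By that rule 243 of 10659 tested genes were higher (2.28%) and 350 lower (3.28%), and the receptor list had a median log2 difference of 0.68 against 0.00 over all genes tested.

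The transcription factor genes moved less. Satb1, a chromatin organiser of lymphoid cells, was at 118.2, 161, 197 and 182 CPM against 28.8, 30.5, 45.4 and 49.0 CPM (log2 difference 2.16, SE 0.07, edgeR adjusted p = 8.1e-24). Irf8, a factor of B cells, monocytes and dendritic cells, was at 71.9, 121, 108 and 83.4 CPM against 29.0, 39.9, 22.8 and 24.6 CPM (1.82, SE 0.11, edgeR adjusted p = 9.3e-13). In both, the lowest mouse of the Dntt-positive cells stood above the highest of the other cells. Ebf1, which commits cells to the B lineage, had 29 UMIs in 14 Dntt-positive cells and 0 in the others, so it was at least 37.8-fold higher (against 3 UMIs over all other cells). Of 27 lymphoid transcription factor genes tested, 4 were higher (the fourth was Nfil3) and 0 lower, with a median of 0.28, and Ebf1 passed the filter through the Dntt-positive cells alone. Mef2c (0.76, SE 0.05) and Tcf4 (0.97, SE 0.06) passed the adjusted p and stayed under the size limit. Ikzf2 itself was somewhat lower in the Dntt-positive cells, at 49.6, 69.7, 54.2 and 57.0 CPM against 80.1, 86.2, 74.4 and 70.5 CPM (−0.36, SE 0.08, edgeR adjusted p = 0.0008). With the cut at 1 Dntt UMI that difference was −0.14 and did not pass.

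Genes of antigen receptor joining and of the B and T lineages differed widely in level. Rag2, a subunit of the recombinase, was at 5.79, 11.2, 13.3 and 14.4 CPM against 0, 0.301, 0.478 and 0.755 CPM (log2 difference 4.76, SE 0.38, edgeR adjusted p = 6.1e-13) and was found in 57 Dntt-positive and 11 other cells. Xrcc6, which encodes the Ku70 subunit of end joining, was at 111, 116, 137 and 133 CPM against 60.8, 64.4, 65.9 and 66.7 CPM (1.01, SE 0.07, edgeR adjusted p = 5.2e-15). These were the only 2 of 9 tested joining and recombination genes called, with Dntt left out. Cnn3, an actin-binding calponin of early B cell progenitors, was at 79.4, 100.02, 103 and 80.6 CPM against 12.8, 13.2, 11.6 and 11.2 CPM (2.97, SE 0.10, edgeR adjusted p = 8.4e-24). In the B lineage list 3 of 10 tested genes were higher (Cnn3, the adaptor gene Blnk and Ighd), and 1 was lower, Jchain, which in the other cells reached 201 CPM in Helios-deficient mouse 2 and 313 CPM in wild-type mouse 1. The Jchain call ended without Helios-deficient mouse 2. Median log2 differences were 0.21 for the joining list and 0.48 for the B lineage list.

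Ighm, the constant region of the IgM heavy chain, could not be read against all other cells. It stood at 317, 406, 497 and 439.6 CPM in the Dntt-positive cells and at 46.0, 57.3, 2117 and 67.9 CPM in the others, where 1 cell of wild-type mouse 1 held 7926 of the 18742 UMIs. That was 42.3% of them, so the larger part lay outside that cell. The log2 difference was 1.46 (SE 1.38, edgeR adjusted p = 0.61). Without wild-type mouse 1 it was 2.81 (edgeR adjusted p = 1.2e-26), and without cells above 20000 UMIs 2.97 (adjusted p = 2.7e-60).

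T lineage genes included Lck, the proximal kinase of the T cell receptor, at 34.7, 55.1, 66.5 and 60.4 CPM against 9.29, 13.1, 17.7 and 15.2 CPM (log2 difference 2.02, SE 0.11, edgeR adjusted p = 1.6e-17), found in 231 Dntt-positive cells. Of the 13 genes of the list 7 passed the filter on low counts and 5 were called higher (also Bcl11b, Cd7, Trbc1 and Trbc2) and 0 lower. A gene absent from the other cells passes that filter only where it is high, so this count is a description. Some of these calls rest on few cells, which p-values over sums per mouse do not show. Bcl11b was found in 4 Dntt-positive cells and 0 other cells, at least 35.2-fold higher, and Trbc1 in 8 cells, none of them in Helios-deficient mouse 1. Trbc1 and Trbc2 are near-identical copies, and reads of one may be counted for the other. Cox6a2, a cytochrome oxidase subunit gene also known from plasmacytoid dendritic cells, was at 25.6, 51.1, 47.6 and 25.9 CPM against 0.442, 0.451, 1.32 and 0.453 CPM (5.75, SE 0.23, edgeR adjusted p = 1.2e-21), and was the 1 gene called of 4 tested in the dendritic list.

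Outside the lists, the largest differences were in genes of varied roles. Arpp21, a cAMP-regulated phosphoprotein gene, was at 17.4, 27.0, 25.1 and 26.5 CPM against 0.221, 0.1505, 0.837 and 1.06 CPM (log2 difference 5.32, SE 0.28). Tmem108, a transmembrane protein gene, was at 14.1, 27.0, 25.1 and 32.2 CPM against 1.77, 0.602, 1.55 and 1.51 CPM (4.26, SE 0.25). Evl, a regulator of actin filaments, differed by 2.79 (SE 0.13), Cd33, a sialic acid-binding receptor, by 3.13 (SE 0.21), and Emp1, an epithelial membrane protein gene, by 3.12 (SE 0.24), and in each the 4 mice were higher in the Dntt-positive cells.

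Stem cell, platelet and erythroid genes were low in the Dntt-positive cells. Of 24 stem cell genes tested, 14 were lower and 0 higher, with a median of −1.48. Gata2, a stem and progenitor transcription factor, was at 19.0, 20.2, 29.2 and 31.1 CPM against 106, 115, 115 and 111 CPM (log2 difference −2.09, SE 0.10, edgeR adjusted p = 2.2e-19), and the adhesion gene Esam was at 9.92, 8.43, 6.65 and 6.33 CPM against 62.2, 63.2, 46.4 and 44.5 CPM (−2.75, SE 0.15). The stem cell factor gene Hlf fell less, by 0.67 on the log2 scale (SE 0.06), under the size limit. Of 18 megakaryocyte genes 16 were lower (median −2.47), among them Itga2b, the gene of CD41 (−2.71, SE 0.16), and Gng11 (−2.29, SE 0.11). The platelet chemokine gene Pf4 (−3.74, SE 0.61, edgeR adjusted p = 0.039) missed the threshold without Helios-deficient mouse 1, Helios-deficient mouse 2 or wild-type mouse 2 (adjusted p = 0.146, 0.167 and 0.177). Of 14 erythroid genes 8 were lower (median −1.99), among them Klf1 (−3.92, SE 0.38) and Car1 (−4.76, SE 0.22).

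Granulocyte and monocyte genes were split. Of 17 tested with Elane left out, 6 were lower and 2 higher (Irf8 and Csf1r), with a median of −0.38. The monocyte surface gene Ly6c2 was at 1.65, 3.37, 0.512 and 0.575 CPM against 46.7, 97.2, 94.1 and 10.7 CPM (log2 difference −5.35, SE 0.22, edgeR adjusted p = 4.8e-21), and the granulocyte progenitor gene Ms4a3 differed by −2.70 (SE 0.21). Mpo was at 225, 274, 284 and 283 CPM against 388, 433, 314 and 255 CPM and did not pass (−0.30, SE 0.21, edgeR adjusted p = 0.49), with overlap between the classes. Proliferation genes differed little in size from the other cells, with 0 of 42 S phase and 0 of 52 G2 and M phase genes called by size and medians of 0.11 and 0.18. Under the adjusted p alone, 3 and 16 of them were higher and 0 and 2 lower, against 1135 higher and 992 lower of all 10659 genes. The share of higher genes was thus above that of all genes in the G2 and M phase list and below it in the S phase list. Of 24 oxidative phosphorylation genes 0 were called by size (6 higher and 3 lower under the adjusted p alone), and of 7 macrophage genes 2 were lower (Axl and C1qa), both at under 10 CPM in each mouse and each without a call once single mice were left out (Axl wild-type mouse 1 or 2, C1qa Helios-deficient mouse 1 or 2 or wild-type mouse 2). The class II assembly gene H2-Ob was higher (1.60, SE 0.09), 1 of 2 called of 10 MHC class II genes. In the interferon list 1 of 24 was higher, Ifi27l2a (1.81, SE 0.17). Btg2 (1.17, SE 0.13) and Klf2 (1.53, SE 0.28) were higher and Egr1 lower among 13 immediate early genes, and in the natural killer and innate lymphoid list of 7 tested genes Klrd1 was higher and Zbtb16 lower, the latter not without wild-type mouse 1 (edgeR adjusted p = 0.140) or wild-type mouse 2 (0.0923).

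**Figure D2:**
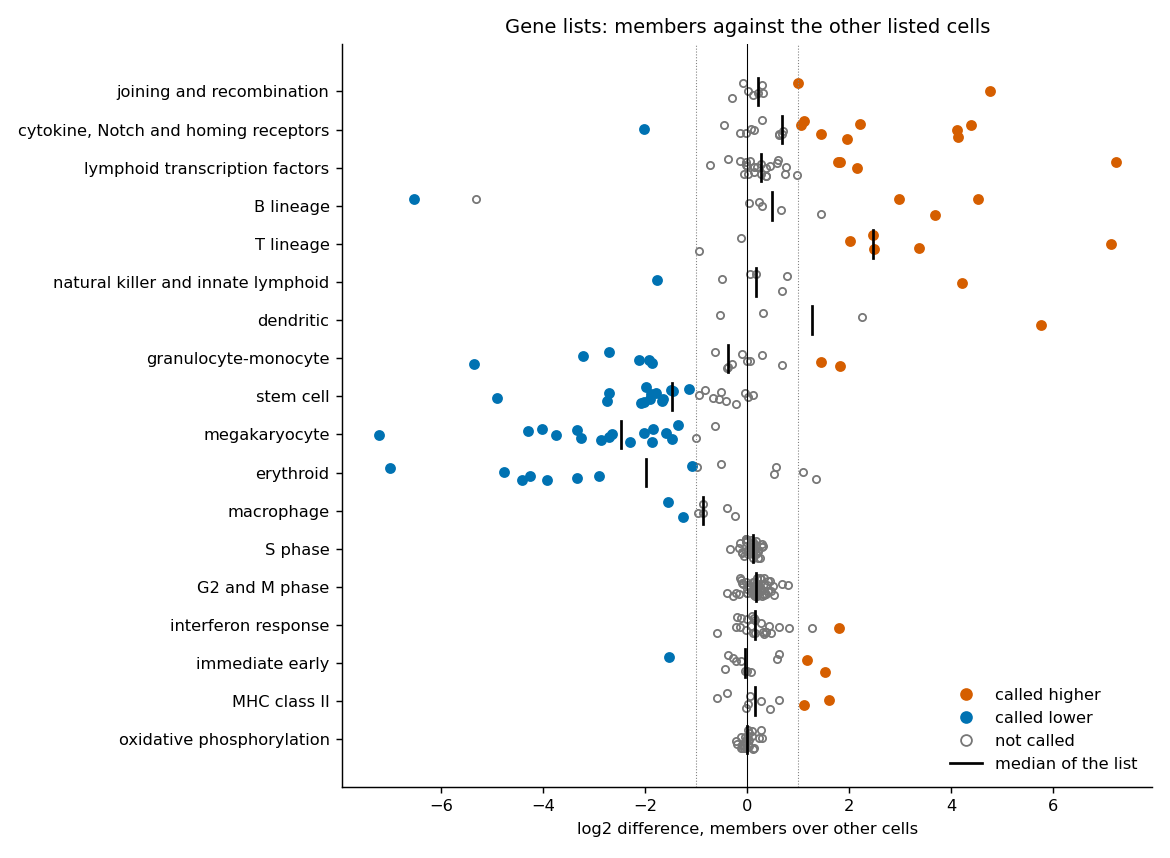
Log2 difference of each tested gene (1 point per gene) between the Dntt-positive cells ("members") and the other kept cells, by gene list, with Dntt and Elane left out. Filled points passed the edgeR adjusted p of 0.05 and a size of 1, and the black bar is the list's median. The stem cell, megakaryocyte and erythroid lists lie to the left (medians −1.48, −2.47 and −1.99), and the S phase and oxidative phosphorylation genes lie within the size limit of 1.

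The closest comparator was the set of 406 cells with at least 2 Flt3 UMIs and 0 UMIs of Dntt and Elane (48, 71, 171 and 116 per mouse), called Flt3 cells here. Flt3 itself chose these cells but not the Dntt-positive cells, and was not tested. It stood at 239.7, 269, 376 and 352 CPM in the Dntt-positive cells against 245, 259.8, 303.6 and 283 CPM in the Flt3 cells. Against them 95 of 9202 genes were higher (1.03%) and 84 lower (0.913%), and without wild-type mouse 1 55 were lower. Il7r was at 0, 0, 0.645 and 0.892 CPM in the Flt3 cells (log2 difference 4.83, SE 0.52, edgeR adjusted p = 3.8e-10). Cnn3 was at 19.3, 13.5, 15.5 and 12.5 CPM there (2.68, SE 0.16, edgeR adjusted p = 1.4e-19). Satb1 was at 42.5, 44.4, 80.6 and 91.0 CPM there (1.34, SE 0.10, edgeR adjusted p = 6.4e-16). All 3 markers stood higher in the Dntt-positive cells of each mouse. Ighm, which could not be read against all other cells, was at 122, 79.4, 109 and 137 CPM in the Flt3 cells. It was 1.99 higher on the log2 scale in the Dntt-positive cells (SE 0.11, edgeR adjusted p = 2.6e-08).

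The receptor genes Notch1 (log2 difference 1.28, SE 0.17), Ccr9 (2.68, SE 0.35) and Ccr7 (2.56, SE 0.48) were also higher than in Flt3 cells, 4 of 17 tested receptor genes with Il7r, and 1 was lower. Of 25 lymphoid transcription factor genes 3 were higher (Satb1, Nfil3 and Id2). Of 7 B lineage genes 3 were higher (Cnn3, Ighm and Blnk), and of 13 T lineage genes 4 passed the filter, of which Lck, Trbc1 and Trbc2 were called. Trbc1 had 0 UMIs in the Flt3 cells and 108 in 8 Dntt-positive cells, so it passed the filter through the latter alone. Cox6a2 differed by 4.88 (SE 0.35) and Arpp21 by 4.53 (SE 0.41). Ly6d, a surface marker of B-primed lymphoid progenitors, had 173 UMIs in 21 Dntt-positive cells and 0 in Flt3 cells (at least 33.9-fold higher against 3 UMIs over the Flt3 cells), but 1 cell held 43.9% of them.

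Stem cell genes were lower than in Flt3 cells too. Of 18 tested 6 were lower and 0 higher, with a median of −0.76. Procr was at 10.7, 15.7, 11.8 and 12.1 CPM against 34.8, 51.2, 51.6 and 29.4 CPM (log2 difference −1.71, SE 0.19, edgeR adjusted p = 5.6e-10). Hlf was at 70.3, 79.2, 86.5 and 109 CPM against 162, 191, 193 and 186 CPM (−1.04, SE 0.09). None of the 11 tested granulocyte-monocyte genes was called, and 2 were lower under the adjusted p alone, against 310 of all 9202 genes. Irf8 of that list exceeded the size limit without passing (1.76, edgeR adjusted p = 0.147), and was called without Helios-deficient mouse 1 (1.99, adjusted p = 0.0045) or Helios-deficient mouse 2 (1.47, adjusted p = 0.0041). Mpo differed by −0.06 (SE 0.06, edgeR adjusted p = 0.69), and Prtn3, the proteinase 3 gene, by −0.59 (SE 0.04, edgeR adjusted p = 1.1e-16).

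The surface tags were not used by the rule. CD48, which marks progenitors that have left the stem cell stage, had median counts of 160, 184, 170 and 161 tag UMIs per Dntt-positive cell against 91, 88, 100 and 107 in the other cells. The mean log2(tag UMIs + 1) was 0.67 ± 0.14 higher (SD over 4 mice) and higher in 4 of 4 mice, and 0.45 ± 0.13 higher than in the Flt3 cells. Its gene Cd48 had a log2 RNA difference of 0.74 (SE 0.11, edgeR adjusted p = 0.0086, and 0.140 without Helios-deficient mouse 1). CD135 differed little, by 0.09 ± 0.04 (higher in 4 of 4 mice), while Flt3 RNA differed by 1.95. Median CD135 counts were 40.5, 39, 41 and 42 against 37, 37, 37 and 38. CD150, a stem cell marker, differed by −0.13 ± 0.03 and CD41 by −0.15 ± 0.09, both lower in 4 of 4 mice. Each difference had an exact paired permutation p of 0.13 (two-sided), the smallest that 4 pairs can give. As a percent of the 4 tags in a cell CD135 turned direction, with a difference of −1.39 percentage points.

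**Figure D3:**
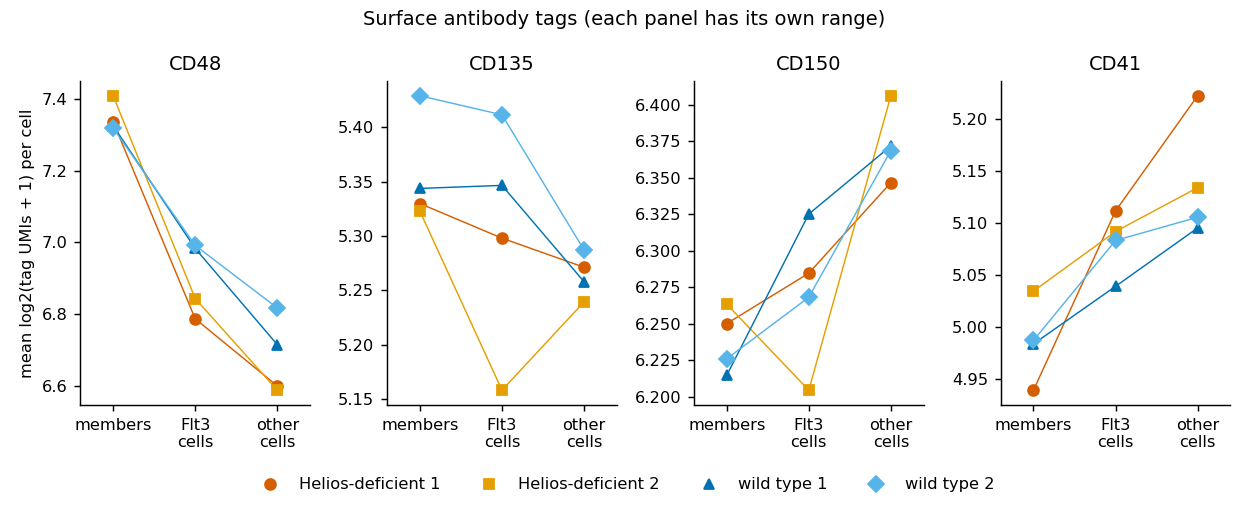
Mean log2(tag UMIs + 1) per cell for the 4 antibody tags in the Dntt-positive cells ("members"), the Flt3 cells and the other cells, with 1 line per mouse and a separate axis range in each panel. CD48 is 0.67 higher on average in the Dntt-positive than in the other cells, and the differences of CD135, CD150 and CD41 are at most 0.15 in size.

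The Dntt-positive cells were not uniform. Read by their own Dntt count, which the rule used, and after thinning to 4000 UMIs, the share of cells with an Ighm UMI was 48.8% at 2 Dntt UMIs, 69.2% at 3 to 5, 77.8% at 6 to 13 and 94.3% at 14 or more. Cnn3 went from 13.01% to 20.0%, 27.8% and 48.3%, and Satb1 from 33.3% to 42.6%, 54.9% and 62.6%. Flt3 was already frequent at 2 UMIs, with 60.2%, then 68.7%, 75.3% and 80.5%. These are descriptions over cells of the same 4 mice, with no test. The later lymphoid genes lay mainly among the cells with the most Dntt. Il7r was found in 0 of 123 cells at 2 Dntt UMIs (which allows up to 2.44%), in 1.54% and 3.09% of the middle groups and in 14.4% at 14 or more. Ebf1 was found in 0%, 0%, 0% and 5.17%, and Rag2 in 0.813%, 1.54%, 2.47% and 8.62%. Stem cell genes ran the other way, Hlf from 37.4% to 34.4%, 24.1% and 9.77% and Procr from 13.01% to 8.21%, 4.94% and 1.72%. Ikzf2 was found in 28.5%, 22.1%, 24.1% and 10.3%. Mpo stayed between 42.6% and 47.2% in all 4 groups, and the median CD48 tag was 158, 153, 156 and 200.5 UMIs. The groups differed in mouse makeup and depth. Helios-deficient mouse 2 gave 59 of its 154 cells to the highest group and Helios-deficient mouse 1 17 of 100, and the median depth was 8415, 8302, 8185.5 and 10914.5 UMIs.

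**Figure D4:**
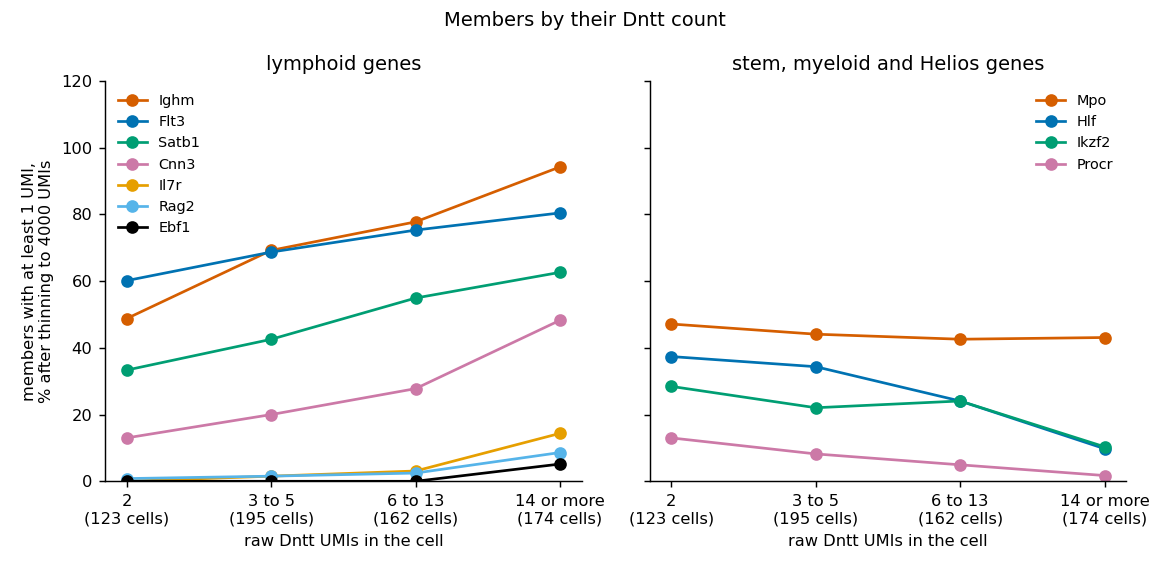
Percent of Dntt-positive cells with at least 1 UMI of a gene after thinning to 4000 UMIs, by the raw Dntt count of the cell (123, 195, 162 and 174 cells). Lymphoid genes are on the left and stem, myeloid and Helios genes on the right. Ighm reaches 94.3% and Il7r 14.4% in the group with the most Dntt, Hlf falls to 9.77%, and Mpo stays near 45%.

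The share of LSK cells that were Dntt-positive overlapped between the 2 genotypes under the rule. It was 18.0% (exact binomial 95% interval 14.9 to 21.4) and 18.7% (16.1 to 21.5) in the Helios-deficient mice and 18.04% (15.9 to 20.4) and 20.6% (18.0 to 23.3) in the wild-type mice. The intervals cover counting error only. The means were 18.3% ± 0.52 and 19.3% ± 1.79 (SD, n = 2 each), a difference of −0.98 percentage points (exact permutation p = 0.667, two-sided), where 2 against 2 mice cannot give a p below 0.3333. Among cells thinned to 4000 UMIs the shares were 11.01%, 12.9%, 13.8% and 15.2%, a difference of −2.56 points in which the genotypes did not overlap (exact permutation p = 0.3333). With the cut at 1 Dntt UMI it was 0.86 points.

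Within the Dntt-positive cells the marker genes were measured in both genotypes. Il7r differed by 0.13 on the log2 scale between Helios-deficient and wild-type mice (SE 0.28, edgeR adjusted p = 0.93), Cnn3 by −0.01 (SE 0.15), Satb1 by −0.41 (SE 0.12, edgeR adjusted p = 0.15) and Ighm by −0.35 (SE 0.10, edgeR adjusted p = 0.15). Dntt, not tested, differed by −0.07 (SE 0.36). Flt3 was lower in the Helios-deficient mice, at 239.7 and 269 CPM against 376 and 352 CPM (log2 difference −0.50, SE 0.09, edgeR adjusted p = 0.0037), and the mice did not overlap. In edgeR that call ended without wild-type mouse 1 (adjusted p = 0.111) and in thinned cells (adjusted p = 0.105). Without Helios-deficient mouse 2, Ighm (−0.55, edgeR adjusted p = 1.05e-07) and Satb1 (−0.67, edgeR adjusted p = 5.23e-05) passed. Ikzf2 was at 49.6 and 69.7 CPM against 54.2 and 57.0 CPM (0.15, SE 0.17, edgeR adjusted p = 0.83). What was removed from Ikzf2 is not stated in the labels and a 3′ library can count a shortened transcript, so this level does not check the genotype.

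By edgeR adjusted p under 0.05, 27 of 9157 genes were higher (0.295%) and 26 lower (0.284%) in Helios-deficient Dntt-positive cells. The counts depended on the mice. Without Helios-deficient mouse 2, 166 were higher and 129 lower, without Helios-deficient mouse 1 56 were higher, and without wild-type mouse 1 15 were higher. Ctse, which encodes the aspartic protease cathepsin E, was at 2.48 and 8.99 CPM against 77.3 and 69.6 CPM (log2 difference −3.51, SE 0.27, edgeR adjusted p = 4.9e-09). Acadl, an enzyme of mitochondrial fatty acid oxidation, was at 29.8 and 38.8 CPM against 99.8 and 93.2 CPM (−1.45, SE 0.17, edgeR adjusted p = 7.3e-06). Both were lower in the other Helios-deficient cells as well, at 10.4 and 14.9 against 81.8 and 85.1 CPM for Ctse and 44.5 and 50.9 against 97.8 and 94.9 CPM for Acadl. Acadl and Rpe (below) lie near Ikzf2 in the genome, and the part of that position in their values was not tested. Sdc1, the heparan sulfate proteoglycan syndecan-1, was higher in Dntt-positive than in other cells and lower with Helios deficiency in them, at 18.2 and 21.4 CPM against 52.7 and 65.6 CPM (−1.54, SE 0.21, edgeR adjusted p = 7.9e-05), with 3.98, 4.67, 11.6 and 11.6 CPM in the other cells. Ctse, Acadl and Sdc1 passed under each of the 12 alternatives that gave a value for them, which may not include DESeq2. Under DESeq2 23 named genes kept their status by genotype, 8 lost a call and 1 gained one, while 87 kept it under another scaling (RLE). The remaining named genes had no DESeq2 value.

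The chemokine gene Ccl3 was at 29.8 and 28.7 CPM against 53.7 and 82.9 CPM (log2 difference −1.21, SE 0.21, edgeR adjusted p = 0.0025) and lost its call in edgeR once wild-type mouse 2 was left out (adjusted p = 0.0778). Slc16a11, a carboxylate transporter, was at 36.4 and 19.1 CPM against 61.4 and 48.3 CPM (−1.06, SE 0.23). Rpe, an enzyme of the pentose phosphate pathway, was at 9.09 and 14.6 CPM against 31.2 and 27.0 CPM (−1.23, SE 0.27). In edgeR, Slc16a11 did not pass without Helios-deficient mouse 2 (−0.59) or wild-type mouse 1 (−0.86). Rpe did not without Helios-deficient mouse 1 (−0.99) or wild-type mouse 1 (−1.12). Neither Slc16a11 nor Rpe passed in thinned cells (−0.86 and −1.17, edgeR adjusted p = 0.335 and 0.217). Without cells above 20000 UMIs they did not pass either (−0.97 and −1.07, edgeR adjusted p = 0.06255 each). Sox4, a progenitor transcription factor and the only one of 26 lymphoid factors called, was at 532 and 580.5 CPM against 697 and 729 CPM (−0.35, SE 0.07), with edgeR adjusted p of 0.0796 without wild-type mouse 1 and 0.317 without wild-type mouse 2. Ltb, a lymphotoxin of lymphoid cells chosen here after its values were seen, was at 73.6 and 89.3 CPM against 152 and 152 CPM (−0.87, SE 0.12, edgeR adjusted p = 0.00019). The T cell receptor gamma genes Tcrg-C1 (−3.11) and Tcrg-C2 (−4.69) were called, but rested on single cells: 1 cell held all 69 Tcrg-C1 UMIs of wild-type mouse 1 and another all 41 of wild-type mouse 2. They are also similar copies of each other, and Tcrg-C2 did not pass in edgeR without wild-type mouse 2 (adjusted p = 0.203).

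Among the genes higher in Helios-deficient Dntt-positive cells, several belong to DNA replication and mitosis. Ccne2, cyclin E2, was at 21.5 and 21.4 CPM against 6.14 and 9.78 CPM (log2 difference 1.45, SE 0.32, edgeR adjusted p = 0.025), Tipin, a replication fork protein, at 227 and 201 CPM against 151 and 150.2 CPM (0.51, SE 0.10), and the mitotic kinase gene Cdk1 at 126 and 121 CPM against 76.2 and 89.2 CPM (0.59, SE 0.13). Of 42 S phase genes 2 were called higher (Ccne2 and Tipin) with a median of 0.35, and of 51 G2 and M phase genes 3 (Hmgb2, Cdk1 and Cks1b) with a median of 0.20, against 0.00 over all genes tested. The summed S phase list stood at 4252 and 4112 CPM against 3432 and 3330 CPM in the Dntt-positive cells and at 3681, 3649, 3601 and 3510 CPM in the other cells. The summed G2 and M phase list was higher in the Helios-deficient mice in both classes, at 5048 and 5068 CPM against 4446 and 4086 CPM in the Dntt-positive cells and at 4531 and 4933 CPM against 3910 and 4299 CPM in the others. Helios-deficient Dntt-positive cells also had more UMIs per cell (above), and the part of depth in these values was not tested beyond thinning. In thinned cells Ccne2 (1.83), Tipin (0.57), Cdk1 (0.67) and Cks1b (0.26) had the same direction and did not pass in edgeR (adjusted p = 0.172, 0.132, 0.221 and 0.545). With the cut at 1 Dntt UMI none of the 5 passed, Ccne2 at 0.67 and Hmgb2 at 0.25 (edgeR adjusted p = 0.568 and 0.178). All 5 depended on the wild-type mice: without mouse 1 Ccne2, Tipin, Cdk1 and Cks1b did not pass in edgeR (adjusted p = 0.258, 0.140, 0.436 and 0.180), and without mouse 2 Tipin, Hmgb2 and Cks1b did not (adjusted p = 0.120, 0.356 and 0.555).

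Other genes were higher without a shared list. Dbi, an acyl-CoA binding protein gene, was at 325 and 303.4 CPM against 217 and 196 CPM (log2 difference 0.61, SE 0.09, edgeR adjusted p = 0.0005). Ass1, the argininosuccinate synthase gene, was at 165 and 173 CPM against 114 and 104 CPM (0.65, SE 0.11, edgeR adjusted p = 0.0025). Ass1 did not pass without wild-type mouse 2 (0.59) or in thinned cells (0.63, edgeR adjusted p = 0.108). Ifitm3, an interferon-induced membrane protein gene, was at 1032 and 1124 CPM against 833 and 748 CPM (0.46, SE 0.06, edgeR adjusted p = 0.00017). Ctsg, the granule protease cathepsin G, was at 119 and 93.8 CPM against 56.3 and 62.7 CPM (0.83, SE 0.15, edgeR adjusted p = 0.0034), without a call once cells above 20000 UMIs (adjusted p = 0.0973) or wild-type mouse 1 (adjusted p = 0.0526) were left out. Ifitm3 was the 1 gene called of 17 in the stem cell list and of 23 in the interferon list, and Ctsg the 1 of 11 in the granulocyte-monocyte list. Ifitm1 of the stem cell list (0.78, edgeR adjusted p = 0.078) and Prtn3 of the granulocyte-monocyte list (0.47, edgeR adjusted p = 0.053) narrowly missed. Both passed in edgeR without cells above 20000 UMIs (adjusted p = 0.0053 and 0.0445). In the remaining lists 0 joining, B lineage, T lineage, natural killer, dendritic, megakaryocyte, erythroid, macrophage, immediate early, MHC class II or oxidative phosphorylation genes were called in either direction.

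Promoter windows of the called genes held the GGGAA core about as often as those of other genes. It was in 18 of 25 windows of the higher genes (72.0%, 21 of 27 genes matched) and in 14 of 22 windows of the lower genes (63.6%, 17 of 26 matched), against 64.3% of the windows of all genes tested.

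**Figure D5:**
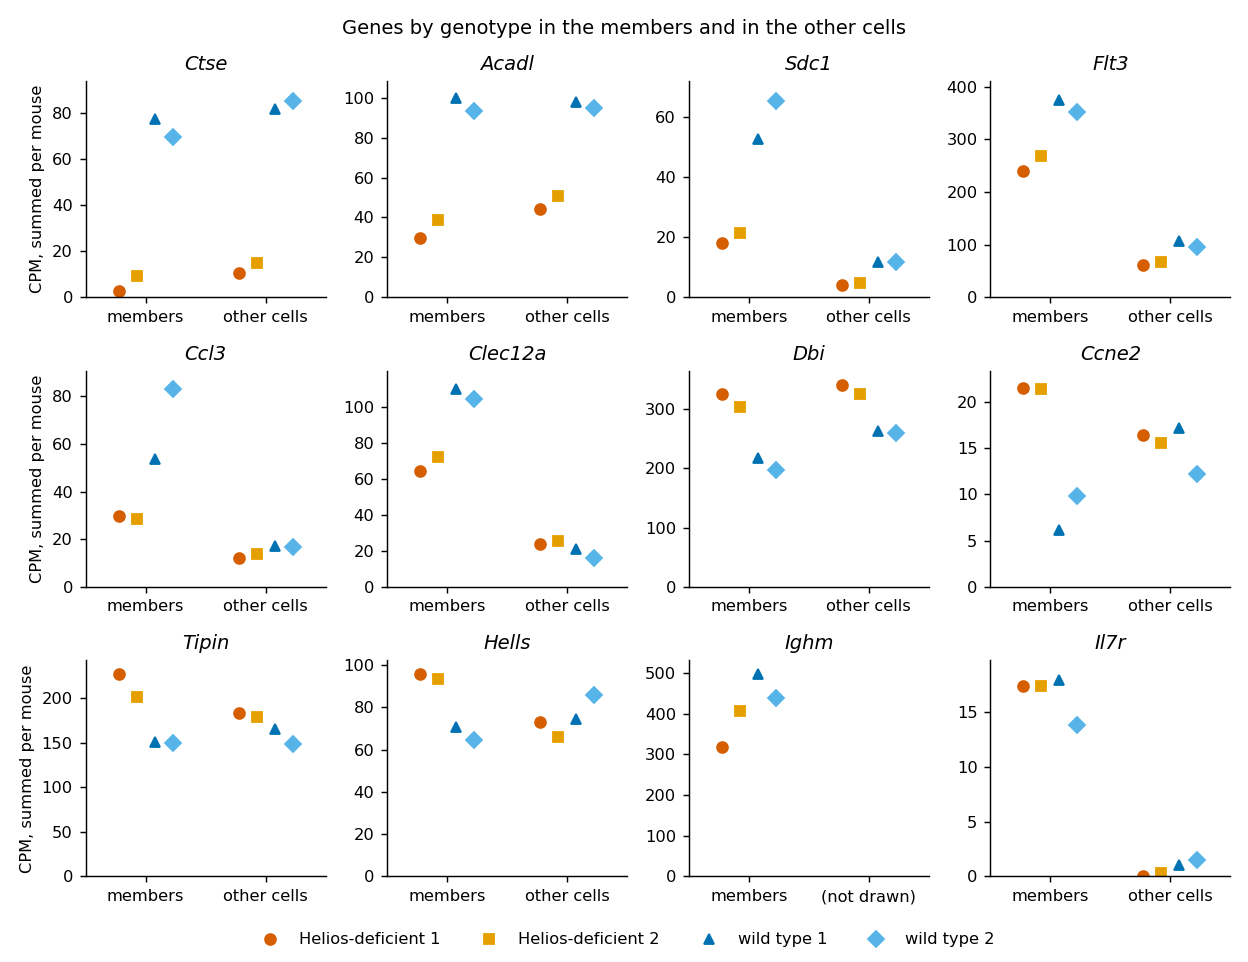
CPM of 12 genes summed per mouse (1 point per mouse) in the Dntt-positive cells ("members") and in the other cells, with axes from 0. Ctse and Acadl are lower in both classes of the Helios-deficient mice, Hells is at 95.9 and 93.3 CPM against 70.6 and 64.4 CPM in the Dntt-positive cells and lower than wild type in the other cells, and Il7r overlaps. Ighm of the other cells is not drawn because wild-type mouse 1 stands far above the other mice there.

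A test of the class by genotype interaction asked where the genotype difference in the Dntt-positive cells departed from that in the other cells. Of 10659 genes 8 had a more positive difference (0.0751%) and 5 a more negative one (0.0469%). The counts moved with the mice: 16, 4, 15 and 13 more positive without Helios-deficient mouse 1, Helios-deficient mouse 2, wild-type mouse 1 and wild-type mouse 2, and 16 more negative without wild-type mouse 1. Clec12a, an inhibitory lectin receptor gene, was at 64.5 and 71.9 CPM against 109 and 104 CPM in the Dntt-positive cells and at 23.7 and 25.4 CPM against 20.9 and 15.7 CPM in the other cells (interaction −1.05 on the log2 scale, SE 0.18, edgeR adjusted p = 0.00088), and turned to 0.27 in thinned cells (adjusted p = 0.951). The helicase gene Hells of the S phase list was at 95.9, 93.3, 70.6 and 64.4 CPM in the Dntt-positive cells and 73.2, 66.2, 74.4 and 85.9 CPM in the others (0.69, SE 0.15, edgeR adjusted p = 0.029). That call ended once Helios-deficient mouse 2 (0.63) or wild-type mouse 2 (0.52) was left out. Hells also did not pass in thinned cells (0.56, edgeR adjusted p = 0.678) or with the cut at 1 Dntt UMI (0.52, edgeR adjusted p = 0.1995). Flt3 (0.14, SE 0.10, adjusted p = 0.89), Ctse (−0.86, SE 0.35, adjusted p = 0.62) and Ccne2 (1.35, SE 0.35, adjusted p = 0.18) were not called in edgeR's interaction test, although Ccne2 passed without wild-type mouse 2 (1.92, adjusted p = 0.0125).

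The surface tags of the Dntt-positive cells differed little by genotype. The mean log2(tag UMIs + 1) was 5.33 in Helios-deficient and 5.39 in wild-type mice for CD135, a difference of −0.06, and the differences of CD48, CD150 and CD41 were 0.05, 0.04 and 0.001. The first 3 had an exact permutation p of 0.3333, the smallest possible, and CD41 had 1.0.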

How the data were processed

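RNA, antibody tags and hashtags of 1 pooled droplet run (Chromium 3′ v2, with 2500 sorted cells loaded per mouse, per the labels' protocols) were deposited as raw UMI counts of 31053 genes in 4108 barcodes. The authors made these counts with Cell Ranger on mm10, per the submitters' processing notes (software version 3.0.2 in the file header), and Seurat 3.0.0 is also named there. Their hashtag call of each barcode and their list of 3470 kept barcodes were used as deposited, and how the list was filtered is not given in the sources used here. The mapping of hashtags to mice came from the labels.

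Counts were summed per mouse and class. Class differences (mouse as a block), genotype differences within Dntt-positive cells and their interaction were fitted over all genes with edgeR 4.0.16 in R 4.3.3 (quasi-likelihood, robust, TMM, filterByExpr) with Benjamini-Hochberg adjustment. Dntt, Elane and, against Flt3 cells, Flt3 were left untested. Calls needed an adjusted p under 0.05 and, between classes, a log2 size of 1. Shares and tags were compared by exact permutation tests (scipy 1.17.1), two-sided. DESeq2 1.42.0 was an alternative, beside other gates, scaling, filters, depths and left-out mice. Scripts were tested on simulated counts with 200 changed genes. For the genotype comparison (9158 genes) 84 of 100 at 2-fold and 43 of 100 at 1.5-fold were recovered with 9 false calls. For the class comparison (10661 genes) these were 100 and 78 with 10 false calls. The simulated counts followed edgeR's own spread, had no outlying single cells, and changed only genes above 10 CPM. These rates check the scripts and do not give the power or false calls of the real comparisons.

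Named genes were the 6 markers, the 10 largest called differences in each direction with the same sign in all mice (between classes, at a mean of at least 10 CPM) or without overlap of genotypes, up to 4 genes per list by p, the genes of the 4 tags, and Ikzf2. Of these the text gives those that carry a result. Ltb and list genes named beside a count, such as Ebf1, were chosen after their values were seen. The members and the gene lists were chosen with earlier results of these data known. Total depth per mouse in the Dntt-positive cells was 1209642, 1779636, 1954666 and 1737834 UMIs. Intervals are exact binomial at 95%. Some genes that met these rules are not reported here.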

Additional observations from a re-analysis of the deposited data

Results flagged for a closer look

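The genotype difference in the Dntt-positive cells departed from that in the other cells for 13 genes in edgeR's interaction test, and 12 of them are given as the log2 interaction with 4 CPM values in the order Helios-deficient mouse 1, Helios-deficient mouse 2, wild-type mouse 1 and wild-type mouse 2. Clec12a (−1.05) and Hells (0.69) are described above. DESeq2 called none of the 13, and 323 genes had a more positive and 332 a more negative interaction at an unadjusted edgeR p under 0.05.

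A pair of granule genes had negative interactions. Mpo (−0.71, SE 0.08, edgeR adjusted p = 1.9e-07) was at 225, 274, 284 and 283 CPM in the Dntt-positive cells and at 388, 433, 314 and 255 CPM in the others. Ctsg (−0.79, SE 0.15) was at 119, 93.8, 56.3 and 62.7 CPM against 214, 203, 74.1 and 61.3 CPM. Without cells above 20000 UMIs the interactions were −0.05 for Mpo and −0.0016 for Ctsg, and in thinned cells −0.0092 and −0.21, with no call. Mpo also lost its call with the cut at 1 Dntt UMI (−1.18), and Ctsg also without Helios-deficient mouse 2 or wild-type mouse 2.

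Nkg7, a granule gene of cytotoxic cells (0.51, SE 0.09), was at 261, 278, 224 and 238 CPM in the Dntt-positive cells and 229, 223, 292 and 256 CPM in the others, so the genotypes were in opposite order. The same held for Emid1 (1.66, SE 0.30) with 22.3, 24.2, 8.19 and 15.0 CPM against 19.2, 21.8, 26.8 and 37.7 CPM. Emid1 passed without each mouse in turn but not in DESeq2, at 3 Dntt UMIs or with the cut at 1 Dntt UMI (1.02, edgeR adjusted p = 0.191), and Nkg7 did not without Helios-deficient mouse 2 or wild-type mouse 1. Cd52 (0.49, SE 0.09) was at 269.5, 355, 390 and 420.1 CPM against 110.2, 111, 206 and 191 CPM, and Lat2, an adaptor of immune receptors (0.65, SE 0.14), at 90.9, 128, 142 and 138 CPM against 36.5, 40.5, 77.8 and 73.3 CPM. Both were lower in Helios-deficient cells of either class, by less in the Dntt-positive cells, and neither passed without Helios-deficient mouse 2 or wild-type mouse 1.

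Mepce (−1.44, SE 0.31) was at 9.92, 11.2, 25.1 and 28.8 CPM against 16.6, 17.2, 14.9 and 16.3 CPM and passed without wild-type mouse 1 only among the left-out mice. Malat1 (−0.20, SE 0.04) and Hsp90aa1 (0.22, SE 0.05) had small interactions, and the latter passed without wild-type mouse 1 only among the left-out mice. Ly6d (3.68, SE 0.40) was at 0.827, 69.7, 22.0 and 2.88 CPM in the Dntt-positive cells, where the genotypes overlapped, and 1 cell of Helios-deficient mouse 2 held 76 of the 124 UMIs of that mouse. It lost its call without Helios-deficient mouse 2 or wild-type mouse 1.

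Outside the kept cells, 29 of 372 barcodes with a single-mouse hashtag call met the rule (7.80%). They entered only the share among all barcodes with a single-mouse hashtag call, since the authors left these barcodes off their list.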

How the results depend on the processing

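Counts of called genes moved with the test, the gate, the filter, the depth and the mice. DESeq2 called 228 lower genes against other cells (350 in edgeR), 45 higher and 26 lower against Flt3 cells (95 and 84), 6 higher and 5 lower by genotype (27 and 26), and 0 and 0 interactions (8 and 5). Without a filter on low counts 67 were higher and 49 lower by genotype and 17 interactions were more positive. With the cut at 1 Dntt UMI the genotype counts were 5 and 17 and the interactions 3 and 2, and at 3 Dntt UMIs with 0 Elane UMIs 1 interaction was more negative. In cells thinned to 4000 UMIs 231 genes were lower than in other cells, 14 lower by genotype (12 of the 27 higher and 11 of the 26 lower genes were shared), and 2 interactions more negative. Without cells above 20000 UMIs 16 interactions were more positive. Leaving out each mouse gave 55 to 87 lower genes against Flt3 cells, 15 to 166 higher and 23 to 129 lower genes by genotype, and 4 to 16 interactions in each direction. The cause of these moves was not tested. Among the named genes Clec12a was the 1 called gene that turned direction, to 0.27 in its interaction in thinned cells. The genotype difference in share turned to 0.86 percentage points with the cut at 1 Dntt UMI and was −2.56 in thinned cells. As percent of the 4 tags the CD135 difference from other cells was −1.39 points and the CD41 genotype difference −0.17 points, and the latter ranged from −0.046 to 0.049 on the log2 scale without each mouse. The planned comparison with cells high in both Dntt and Elane was not run, since 1 cell qualified. No paired analysis of genotype was possible because the labels tie no Helios-deficient mouse to a wild-type mouse. Depth limits absence: 0 UMIs in the 654 cells allows up to 0.459% of such cells to have a detected UMI and sets no limit on cells that express the gene.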
